A study of Mus musculus with 24 samples.

Results

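MHC class I presentation genes encode the molecules that cut proteins into peptides, carry the peptides into the endoplasmic reticulum and display them at the cell surface, and 10 of them were followed across 24 mouse tumours. They were taken by gene symbol: the heavy chains H2-K1 and H2-D1, the light chain B2m, the peptide transporter subunits Tap1 and Tap2, tapasin (Tapbp), the immunoproteasome subunits Psmb8 and Psmb9, and the proteasome activator subunits Psme1 and Psme2. Each gene was read from the probe set that carries its symbol alone and has the highest mean. This gave 7 of the 10 genes a value. All 7 passed the filter on dim genes, among 13218 genes tested of 17097 with such a probe set. B2m, Tap1 and Tap2 were not analysed here, since no probe set carries their symbols in the probe-to-gene table used.

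The tumours were excised from the mouse cortex, and each was measured on 1 single-colour array. Per the labels, they grew from cells expressing RAB3A (6 tumours), BC74C (9 tumours) or ZNF668 (9 tumours), here called the class genes; BC74C is spelled as the labels give it and is not an approved symbol. A further label called 4 tumours HGG, which is not spelled out, 11 ependymoma, 5 TUMOR and 4 UNKNOWN. The HGG tumours were 2 BC74C and 2 ZNF668 tumours, and the ependymomas were 2 RAB3A, 6 BC74C and 3 ZNF668 tumours. The labels give no strain, age or promoter, and all comparisons here are between tumours. Replicate numbers follow the order of deposit. Nothing in the labels ties each tumour to an animal of its own, so p-values measure only the spread between these samples.

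Values are log2 signals, on which a difference of 1 is a doubling. They are compared only within a gene, because probe sets differ in brightness. The median of an array lay between 4.98 and 5.19, and the number of arrays limits the precision. Of the sample titles, 18 start with the letters elw and 6 with mmr (2 RAB3A, 1 BC74C and 3 ZNF668 tumours). What these letters mark is not stated, and results are also given within each set.

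In the class I pathway, proteasomes degrade cytosolic proteins. Interferon and other inflammatory signals replace the constitutive catalytic subunits Psmb5, Psmb6 and Psmb7 with Psmb8, Psmb9 and Psmb10, and induce the PA28 activator made of Psme1 and Psme2. TAP, a dimer of Tap1 and Tap2, carries the peptides into the endoplasmic reticulum, and tapasin holds empty class I molecules beside it. The loaded heavy chain and B2m then travel to the surface, where CD8 T cells read the peptide. Nlrc5 is a transactivator of class I genes that acts at conserved promoter boxes. Neurons of the healthy brain hold little class I, and microglia and endothelial cells hold more.

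Sequence before the transcription start was taken from RefSeq for 9 of the 10 genes (build GRCm38.p6). The stretches of both heavy chains are shown because their probe sets and promoters resemble each other, and that of Psmb9 because it varied most among the members and lies beside Tap1. Capitals mark the motifs found, which were GGG and TTCCC with any 2 bases between them (a kappaB palindrome), GAANNGAAA (the core of an interferon response element), TGACG (the core of an X2 box) and CCAAT. Each was searched on both strands and is printed as it reads on the strand of the gene.
H2-K1: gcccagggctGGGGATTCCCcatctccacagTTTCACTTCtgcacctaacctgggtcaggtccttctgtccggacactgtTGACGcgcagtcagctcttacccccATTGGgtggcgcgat
H2-D1: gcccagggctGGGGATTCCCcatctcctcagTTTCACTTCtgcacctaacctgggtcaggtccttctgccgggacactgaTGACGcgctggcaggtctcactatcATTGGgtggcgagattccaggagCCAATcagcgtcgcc
Psmb9: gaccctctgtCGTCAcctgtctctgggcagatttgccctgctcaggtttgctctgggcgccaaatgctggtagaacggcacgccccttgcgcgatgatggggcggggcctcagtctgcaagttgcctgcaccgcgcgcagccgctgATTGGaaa
The H2-K1 stretch is chr17:34000349-34000468 on the minus strand, bases -121 to -2 from the start of transcription. The H2-D1 stretch is chr17:35262913-35263055 on the plus strand, bases -181 to -39. The Psmb9 stretch is chr17:34187331-34187484 on the minus strand, bases -154 to -1. In the alignment of the upstream windows of H2-K1 and H2-D1, 167 of 190 aligned bases were identical (87.9%). Both heavy chains carried all 4 motifs, and no motif overlapped another. Psmb9 carried TGACG and CCAAT. Its stretch lies within the 225 bases between Psmb9 and Tap1, which are transcribed in opposite directions, so the same letters stand upstream of Tap1.

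Within 250 bases upstream, the kappaB palindrome was found in 1.53% of 32851 RefSeq promoters and the interferon core in 6.31%, and of the 9 members in H2-K1 and H2-D1. TGACG was found in 17.8% of the promoters and in 6 of the 9 members, and CCAAT in 33.8% and in 6 of the 9. Psmb9 and Tap1 are each in both counts through the same bases, which lie between them. A longer repeat, GAAA and GAAA with any 2 bases between them, was found in 2.98% of promoters and, of the members, in that of B2m. TTCNNNGAA, the letters of a gamma-activated site, was found in 7.02% and, of the members, in that of Psmb8. These are matches of letters, and a missing match says only that the letters are not in the window. Psmb9, Tap1, Psmb8 and Tap2 follow each other on chromosome 17, with 0 other protein-coding genes between neighbours. Psme1 and Psme2 lie on chromosome 14 with 1 such gene, Emc9, between them.

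The measured members were high or low together from tumour to tumour. In 7 tumours all 7 members lay above their own 24-tumour means, namely BC74C replicates 1, 2, 6, 8 and 9 and ZNF668 replicates 4 and 6. In 5 tumours 0 of the 7 did, namely RAB3A replicates 1, 2 and 3 and ZNF668 replicates 5 and 9. A first axis through the members held 86.9% of their variance and a further axis 5.58%. The values were centred but not scaled, so Psmb9 (SD 1.09) and Psmb8 (SD 0.91) weigh more in these shares than Psme1 (SD 0.40). The 21 pairs of members had Pearson r between 0.585 and 0.958 across tumours, with a median of 0.786.

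**Figure D1:**
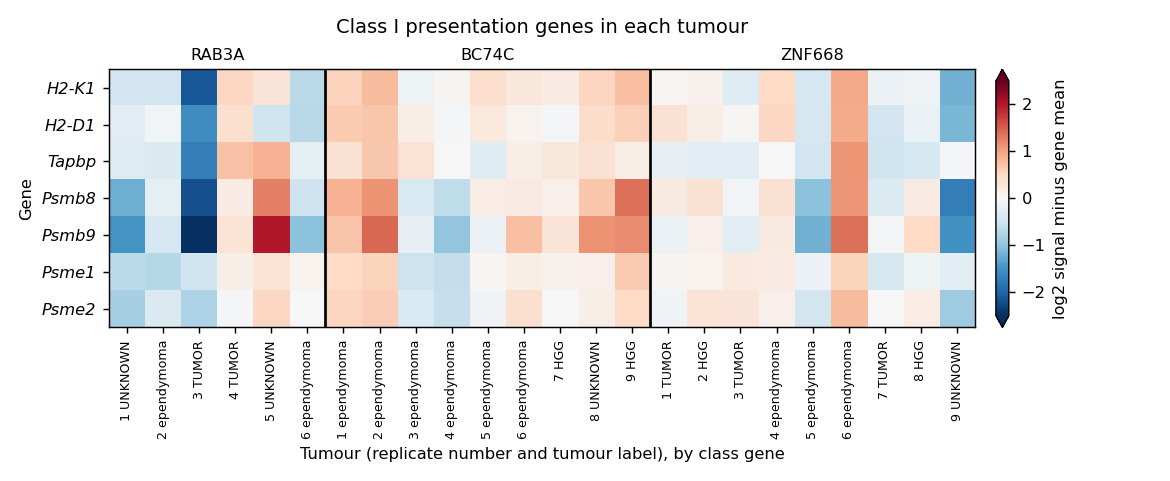
Each column is a tumour, with RAB3A tumours left of BC74C and ZNF668 tumours, and each row a measured member; the colour is the log2 signal minus the gene's mean over 24 tumours. RAB3A replicate 3 is the darkest column on the low side, at -2.59 for Psmb9 and -2.12 for H2-K1, and Psme1 and Psme2 span narrower ranges than Psmb9.

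The heavy chains form the groove that holds the peptide. H2-K1 spanned 3.07 over the 24 tumours, an 8.42-fold range, with RAB3A replicate 3 lowest at 9.88 and ZNF668 replicate 6 highest at 12.96. H2-D1 spanned a 5.54-fold range, with the same tumours at its ends, at 10.68 and 13.15. The 2 heavy chains had an r of 0.912 with each other (rho 0.867).

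Tapasin and the proteasome genes had ranges of their own. Tapbp spanned 6.96-fold, with RAB3A replicate 3 lowest at 7.61 and ZNF668 replicate 6 highest at 10.41. Psmb9 had the widest range of the members, 24.2-fold, with RAB3A replicate 3 lowest at 5.97 and RAB3A replicate 5 highest at 10.57. Both ends of the Psmb9 range were thus RAB3A tumours. Psmb8 spanned 3.59 on the log2 scale, with RAB3A replicate 3 lowest at 7.29 and BC74C replicate 9 highest at 10.88. The activator subunits moved less, with ranges of 2.57-fold for Psme1 and 3.22-fold for Psme2. Over 24 tumours the SD of the log2 signal was 1.09 for Psmb9, 0.91 for Psmb8 and 0.40 for Psme1, against a median of 0.443 over all genes tested.

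The relations of H2-K1 with the other members were tested over the 24 tumours by two-sided permutation, with Benjamini-Hochberg adjustment over these 6 relations. Pearson r was 0.912 with H2-D1, 0.906 with Psmb8, 0.868 with Psmb9 and 0.791 with Tapbp (permutation adjusted p = 1.2e-05 each, from an unadjusted 1e-05, the smallest these permutations can give; rho 0.867, 0.878, 0.878 and 0.752). It was 0.759 with Psme2 (permutation adjusted p = 1.2e-05, rho 0.737) and 0.672 with Psme1 (permutation adjusted p = 0.0002, rho 0.770). All 6 rank correlations had permutation adjusted p of 4e-05 or less. Without RAB3A replicate 3 and ZNF668 replicate 9, the tumours farthest from the H2-K1 median, r lay between 0.679 with Psme2 and 0.835 with Psmb8.

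Within the 18 elw tumours these 6 r values lay between 0.690 and 0.955, and within the 6 mmr tumours 5 of them lay between 0.705 and 0.965. The r of H2-K1 with Tapbp was 0.899 in elw tumours and 0.384 in mmr tumours. The closest pair was within the proteasome, but other pairs were close too. Psmb8 and Psmb9, both immunoproteasome subunits, had an r of 0.958. Psme1 and Psme2, which form the PA28 activator together, had one of 0.859, below that of Psme2 with Psmb8 (0.909) and with Psmb9 (0.884) and of H2-K1 with Psmb8 (0.906). The lowest r was that of H2-D1 with Psme1, 0.585. These r values over pairs are descriptions, and all pairs share the same arrays.

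**Figure D2:**
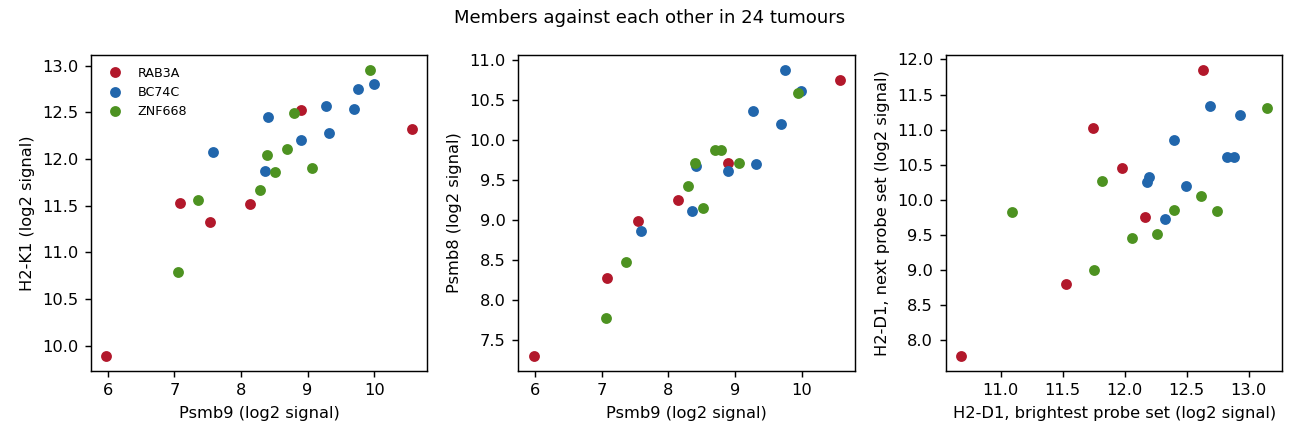
Each point is 1 of 24 tumours, coloured by class gene, with log2 signals on both axes: H2-K1 against Psmb9 (left), Psmb8 against Psmb9 (middle), and the H2-D1 probe set next in brightness against the brightest H2-D1 probe set (right). The middle plot is the tightest, at r 0.958, and the right plot the loosest, at 0.698.

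RAB3A replicate 5 broke the common pattern, as read from the probe sets used. It had the highest Psmb9 signal, at 2.003 above the gene's mean, and Psmb8 lay 1.26 above its mean, while H2-K1 lay 0.32 above and H2-D1 at -0.49. The mean of the centred heavy chains minus that of the 4 proteasome members was -1.12 there, against values of -0.33 to 0.71 in all other tumours. The low H2-D1 value depends on the probe set. The pair of H2-D1 probe sets next in brightness read 11.02 and 10.73 in this tumour, above their means of 10.16 and 9.97. The same tumour had the highest mean of the class II genes, at 10.02 against a 24-tumour median of 6.09, the highest mean of B cell and dendritic cell markers, at 8.03 against 4.69, and the highest mean of T and NK cell markers, at 5.08 against 4.18. Its mean of the interferon-induced genes was 8.33 against a median of 9.44. The part of these markers in its Psmb9 value was not tested.

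RAB3A replicate 3 and ZNF668 replicate 9 were low in nearly all members. The 7 centred members averaged -1.64 in RAB3A replicate 3, with Psme1 at -0.51 and Psme2 at -0.78. They averaged -0.96 in ZNF668 replicate 9, but its Tapbp was at -0.03. The interferon-induced genes had their lowest means in the same 2 tumours, at 6.86 in RAB3A replicate 3 and 6.74 in ZNF668 replicate 9. ZNF668 replicate 9 also had the highest endothelial marker mean, at 8.46 against a median of 6.89, and RAB3A replicate 3 the lowest class II mean, at 4.77. In bulk tumours, fewer cells of a type and less RNA per cell cannot be told apart.

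Whether the class genes gave tumours with different class I expression was asked with 1 limma model over the 24 tumours, so that the 3 comparisons share tumours. The mean of every measured member was highest in BC74C tumours, next in ZNF668 tumours and lowest in RAB3A tumours. By limma, 0 members passed the adjusted threshold between neighbours in this order or between its ends, RAB3A and BC74C tumours.

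RAB3A tumours had lower means than BC74C tumours for 7 of 7 members, with a median difference of -0.76 against -0.04 over all genes tested, of which 56% were negative. H2-K1 had a lowest value of 9.88, a median of 11.52 and a highest value of 12.53 in RAB3A tumours, and of 11.87, 12.45 and 12.80 in BC74C tumours. Of the 6 RAB3A tumours 5 lay below the BC74C mean, and the groups overlapped. The RAB3A mean was 11.52 ± 0.94 (SD, n = 6) and the BC74C mean 12.39 ± 0.31 (SD, n = 9), a difference of -0.88 (SE 0.31, limma adjusted p = 0.439, unadjusted p = 0.00923). H2-D1 had a RAB3A mean of 11.79 ± 0.66 (SD, n = 6) and a BC74C mean of 12.55 ± 0.29 (SD, n = 9), a difference of -0.76 (SE 0.27, limma adjusted p = 0.431, unadjusted p = 0.00876). Limma called 0 of the 7 members and 0 of 13218 genes (0% called) in this comparison. The groups overlapped for 7 of 7 members, and among all genes 0.113% had groups that do not overlap. At an unadjusted p under 0.05 there were 2 members, the heavy chains, and 1085 genes (8.21%).

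Tapasin, which edits the peptide cargo, had a RAB3A mean of 9.14 ± 0.93 (SD, n = 6) and a BC74C mean of 9.54 ± 0.28 (SD, n = 9), a difference of -0.40 (limma adjusted p = 0.729). Psmb9 had a lowest value of 5.97, a median of 7.84 and a highest value of 10.57 in RAB3A tumours, and of 7.58, 9.27 and 9.99 in BC74C tumours. The BC74C values all fell inside the RAB3A range, and the difference of means was -0.9965 (SE 0.53, limma adjusted p = 0.625). Psmb8 differed by -0.85 (SE 0.44), Psme2 by -0.38 (SE 0.24) and Psme1 by -0.33 (SE 0.20), with limma adjusted p from 0.621 to 0.692. Without RAB3A replicate 5 the Psmb9 difference was -1.50 (limma adjusted p = 0.407). Without RAB3A replicate 3 it was -0.58, that of H2-K1 was -0.55, and the median over members was -0.50. The median was -0.66 within elw tumours and -0.70 within mmr tumours, where there was 1 BC74C tumour.

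**Figure D3:**
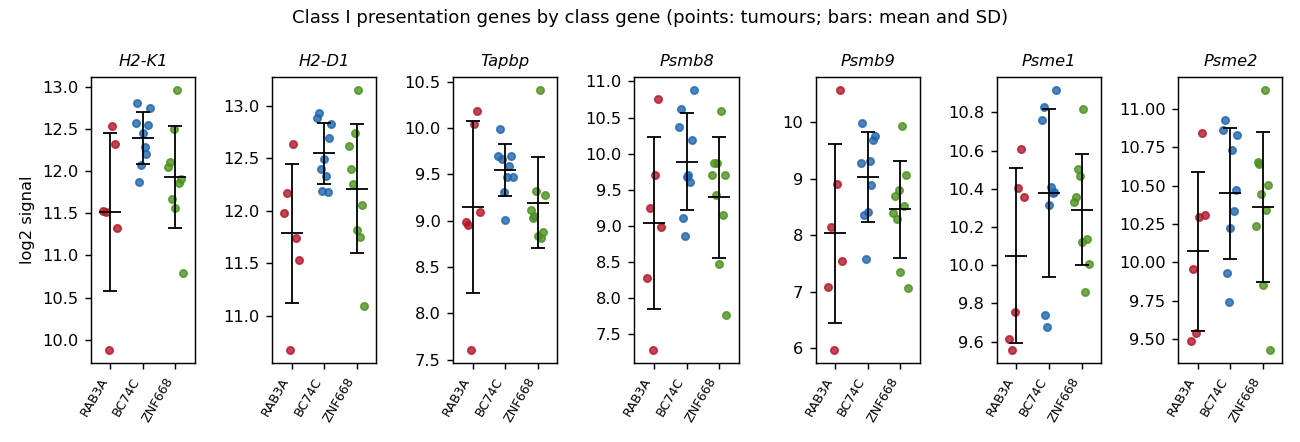
Points are tumours and bars the mean and SD of the log2 signal in 6 RAB3A, 9 BC74C and 9 ZNF668 tumours, with an axis of its own for each gene. The groups overlap for every member, and the H2-K1 bar is longer in RAB3A tumours (SD 0.94) than in BC74C tumours (SD 0.31).

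The members had wider spreads among RAB3A tumours, in part through 1 tumour. The median SD over the 7 members was 0.928 in RAB3A, 0.425 in BC74C and 0.604 in ZNF668 tumours, while the median over all genes tested was 0.414, 0.406 and 0.411. For Psmb9 the SD was 1.59 in RAB3A, 0.79 in BC74C and 0.86 in ZNF668 tumours, and for Tapbp 0.93, 0.28 and 0.49. Psme1 had SDs of 0.46 in RAB3A, 0.44 in BC74C and 0.29 in ZNF668 tumours. Without RAB3A replicate 3 the median SD in RAB3A tumours was 0.542, under the ZNF668 median of 0.604. Only H2-K1, at 0.542, and H2-D1, at 0.423, then lay under their ZNF668 SDs of 0.604 and 0.613. The other members stayed above theirs, with Tapbp at 0.609 against 0.491 and Psmb9 at 1.37 against 0.861. Psmb8 was at 0.921 against 0.838, Psme1 at 0.487 against 0.291 and Psme2 at 0.499 against 0.488. The ZNF668 median was itself 0.479 without ZNF668 replicate 9. These spreads are descriptions, and the difference between the groups' spreads was not tested.

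RAB3A tumours also had lower means than ZNF668 tumours for 7 of 7 members, with a median of -0.35 against -0.05 over all genes tested, of which 56.2% were negative. H2-D1 had a RAB3A mean of 11.79 and a ZNF668 mean of 12.21 ± 0.61 (SD, n = 9), a difference of -0.42 (SE 0.27, limma adjusted p = 0.570). H2-K1 differed by -0.42 (SE 0.31), Psmb9 by -0.42 (SE 0.53) and Psmb8 by -0.35 (SE 0.44). The differences were -0.29 for Psme2, -0.24 for Psme1 and -0.05 for Tapbp. The groups overlapped for 7 of 7 members, and among all genes 0.0454% had groups that do not overlap. Limma called 0 of the 7 members and 10 of 13218 genes (0.0757%), and at an unadjusted p under 0.05 there were 0 members and 1217 genes (9.21%). RAB3A replicate 3 decided most of these values: without it the median was -0.09, Psmb8 and Psmb9 differed by -0.004 and -0.009, and Tapbp by 0.26. Within the elw tumours the median was -0.67 and within the mmr tumours 0.48, with 7 of 7 members higher in RAB3A there.

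BC74C tumours had higher means than ZNF668 tumours for 7 of 7 members, with a median of 0.35 against 0.005 over all genes tested, of which 51.2% were positive. H2-K1 had a BC74C mean of 12.39 ± 0.31 (SD, n = 9) and a ZNF668 mean of 11.93 ± 0.60 (SD, n = 9), a difference of 0.46 (SE 0.28, limma adjusted p = 0.853). Of the 9 BC74C tumours 8 lay above the ZNF668 mean, and the groups overlapped. Psmb9 differed by 0.575 (SE 0.47), Psmb8 by 0.49 (SE 0.39), Tapbp by 0.35 (SE 0.26) and H2-D1 by 0.34 (SE 0.24), with limma adjusted p from 0.922 to 0.944. Psme1 and Psme2 differed by 0.09 each. Limma called 0 of the 7 members and 40 of 13218 genes (0.303%), and at an unadjusted p under 0.05 there were 0 members and 909 genes (6.88%). The groups overlapped for 7 of 7 members, and among all genes 0.0757% had groups that do not overlap. Within the elw tumours the median was 0.11, with Psme1 at -0.12 and Psme2 at -0.09. Among tumours labelled ependymoma it was 0.001, with H2-K1 at 0.004, but this rests on 3 ZNF668 tumours. Without ZNF668 replicate 6 the median was 0.314 there, with 6 of 7 members positive, and without ZNF668 replicate 5 it was -0.385, with 0 of 7 positive. The mmr median of 1.19 rests on 1 BC74C tumour.

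The comparison of HGG with ependymoma used 15 tumours and was adjusted for the class gene, so a difference need not equal that of the plain means. No RAB3A tumour was labelled HGG, so the 2 RAB3A ependymomas do not move the adjusted differences. They are included in the ependymoma means and ranges given here. Heavy chains and tapasin had negative differences, and the 4 proteasome members positive ones, beside 50.2% positive over all genes tested. The groups overlapped for 7 of 7 members, and 0.0454% of genes had groups that do not overlap. H2-K1 was 12.75, 12.21, 12.11 and 11.91 in the HGG tumours, against a lowest value of 11.32, a median of 12.28 and a highest value of 12.96 in the ependymomas. All 4 HGG tumours lay within the ependymoma range. H2-K1 had an HGG mean of 12.24 ± 0.36 (SD, n = 4) and an ependymoma mean of 12.17 ± 0.55 (SD, n = 11), with an adjusted difference of -0.07 (SE 0.23). H2-D1 differed by -0.17 (SE 0.23) and Tapbp by -0.25 (SE 0.25).

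Psmb9 was 9.75, 9.06, 8.90 and 8.69 in the HGG tumours, against a lowest value of 7.36, a median of 8.41 and a highest value of 9.99 in the ependymomas. All 4 HGG tumours lay above the ependymoma mean and inside the ependymoma range. Psmb9 had an HGG mean of 9.10 ± 0.46 (SD, n = 4) and an ependymoma mean of 8.61 ± 0.94 (SD, n = 11), with an adjusted difference of 0.36 (SE 0.47). Psmb8 was likewise above the ependymoma mean in 4 of 4 HGG tumours and differed by 0.36 (SE 0.40), Psme2 by 0.15 (SE 0.26) and Psme1 by 0.10 (SE 0.25). Limma called 0 of the 7 members and 0 of 13218 genes (0%), with limma adjusted p of 1 for each member. At an unadjusted p under 0.05 there were 0 members and 229 genes (1.73%). Within elw tumours the Psmb9 difference was 0.04 and the median over members -0.006, and the mmr tumours, with 1 ependymoma, gave no such fit.

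**Figure D4:**
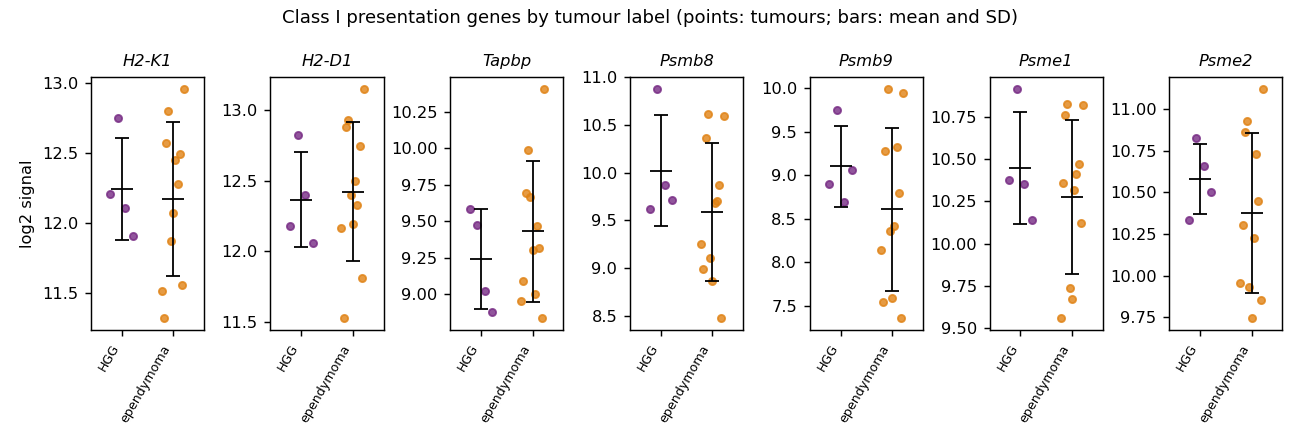
Points are tumours and bars the mean and SD of the log2 signal in 4 HGG and 11 ependymoma tumours, with an axis of its own for each gene. The HGG points lie inside the ependymoma range for H2-K1, H2-D1, Tapbp, Psmb9 and Psme2, and 1 HGG tumour lies above it for Psmb8 and for Psme1.

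Some probe sets are listed for both heavy chains, which limits how far the 2 can be told apart. The table has 4 probe sets for H2-K1 alone, 5 for H2-D1 alone and 5 that list both with a further locus. The H2-K1 probe set used had r of 0.988, 0.986 and 0.879 with the other H2-K1 probe sets. The H2-D1 probe set used had r of 0.698 and 0.711 with the pair next in brightness, and these had an r of 0.996 with each other. The H2-D1 probe set used was closer to H2-K1 (0.912) than to them.

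A dim H2-D1 probe set above the filter followed the one used, with an r of 0.901 and differences of -0.62 between RAB3A and BC74C tumours and -0.29 between RAB3A and ZNF668 tumours. The pair next in brightness gave other values. For the one next in brightness the difference was -0.63 between RAB3A and BC74C tumours and 0.04 between RAB3A and ZNF668 tumours, against -0.76 and -0.42 for the one used, and limma over all probe sets called 0 of these. In RAB3A replicate 5 it read 11.02, above its mean of 10.16, where the one used read 11.74, below its mean of 12.23. It had an r of 0.865 with Tapbp and 0.364 with Psme2, against 0.663 and 0.666 for the one used. Which of these follows H2-D1 was not tested.

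The other members had fewer probe sets. A further probe set above the filter is listed for Psmb9, but it was designed on another source sequence and which gene it measures is in doubt, so its values are not given. The Psmb9 values here thus rest on the probe set used alone, except in the alternative that took the mean of all probe sets. The Tapbp probe sets had an r of 0.612, and the dimmer one differed by 0.12 between RAB3A and ZNF668 tumours, against -0.05 for the one used. Psmb8 had a dim further probe set with an r of 0.857, and Psme1 and Psme2 had 1 probe set each.

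The rest of the class I machinery was followed with lists of related genes. Of the 8 other class I heavy chains tested, 8 had lower means in RAB3A than in BC74C tumours, with a median of -0.67 and 0 called, and 8 of 8 with a median of -0.427 without RAB3A replicate 3. H2-Q4, a nonclassical heavy chain, had a RAB3A mean of 4.32 ± 0.50 (SD, n = 6) and a BC74C mean of 6.48 ± 1.33 (SD, n = 9), a difference of -2.16 (SE 0.55, limma adjusted p = 0.318). Its RAB3A values lay between 3.72 and 4.98, and its BC74C values between 4.98 and 8.78. The highest RAB3A value, 4.980, was just under the lowest BC74C value, 4.983. Among all genes 0.113% had groups that do not overlap in this comparison. The H2-Q4 difference was 1.495 between BC74C and ZNF668 tumours (SE 0.49, limma adjusted p = 0.323). H2-Q4 had an r of 0.399 with the mean of the members, where H2-T23 and H2-M3 had 0.84 each.

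Among chaperones and peptidases that load and trim peptides, 12 of 13 had lower means in RAB3A than in BC74C tumours, with a median of -0.33 and 0 called. Calnexin (Canx), which folds new heavy chains, differed by -0.33 (limma adjusted p = 0.426). In RAB3A minus ZNF668, 12 of 13 were negative as well, and in BC74C minus ZNF668 9 of 13 were positive, at medians of -0.30 and 0.06, the second of which was -0.02 without ZNF668 replicate 9. In HGG minus ependymoma 10 of 13 were negative, at a median of -0.08, but 3 of 13 without BC74C replicate 7.

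Psmb5 and Psmb6 of the constitutive proteasome stood apart from the members in their spread, and Psmb7 and the activator Psme3 did so less. Psmb5, the constitutive counterpart of Psmb8, had an SD of 0.134 over the 24 tumours, against 0.91 for Psmb8, and Psmb6, the counterpart of Psmb9, one of 0.192, against 1.09 for Psmb9. Psmb7 had an SD of 0.289, and Psme3 one of 0.348, against 0.400 for Psme1 and 0.476 for Psme2. The r between inducible and constitutive subunit was -0.051 for Psmb8 with Psmb5, -0.013 for Psmb9 with Psmb6 and 0.221 for Psmb10 with Psmb7. Psme3 had an r of 0.368 with Psme1, 0.511 with Psme2 and 0.379 with the mean of the members. Psmb10, the remaining inducible subunit, had an SD of 0.388 and an r of 0.863 with the mean of the members. Its means were 9.70 in RAB3A, 10.15 in BC74C and 10.07 in ZNF668 tumours, and the difference between RAB3A and BC74C tumours was -0.46 (SE 0.18, limma adjusted p = 0.494). Of 19 constitutive subunits and other activators, 15 were lower in RAB3A than in BC74C tumours, but the median was -0.05, with 0 called.

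Genes whose pattern was most like that of the members were found by Pearson r over the 24 tumours with the mean of the 7 centred members, among 13211 other genes tested. Names from clones or predictions were passed over, at both ends of the order. Nlrc5 ranked first, with an r of 0.945. H2-T10, a nonclassical heavy chain, followed at 0.936, and next came Zbp1 at 0.908, Isg20 at 0.897, Dhx58 and Uba7 at 0.896, and Trim14, Trim30a and Ifi27l2a at 0.892. A probe set listed for Phf20l1 was at 0.916 and had a mean of 12.69, but the other 4 probe sets listed for it had means of 7.67 to 8.09 and r of -0.21 to 0.11. Which gene this probe set measures is thus in doubt, and the value is not taken as that of Phf20l1. The lowest r were those of Kif2a at -0.807, Armcx4 at -0.784, Klhdc10 at -0.781, Sfmbt2 at -0.780 and Bex3 at -0.764. Irf1, an interferon-induced transcription factor, stood at 0.823.

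Nlrc5 is described in full, as the gene ranked first. It had a lowest value of 4.26, in RAB3A replicate 3, and a highest value of 8.94, in ZNF668 replicate 6. The RAB3A mean of It was 6.64 ± 1.34 (SD, n = 6), the BC74C mean 7.57 ± 0.90 (SD, n = 9) and the ZNF668 mean 7.20 ± 1.09 (SD, n = 9), and limma called it in 0 of the comparisons. Its difference was -0.93 between RAB3A and BC74C tumours (SE 0.55, limma adjusted p = 0.661), and -0.46 without RAB3A replicate 3.

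**Figure D5:**
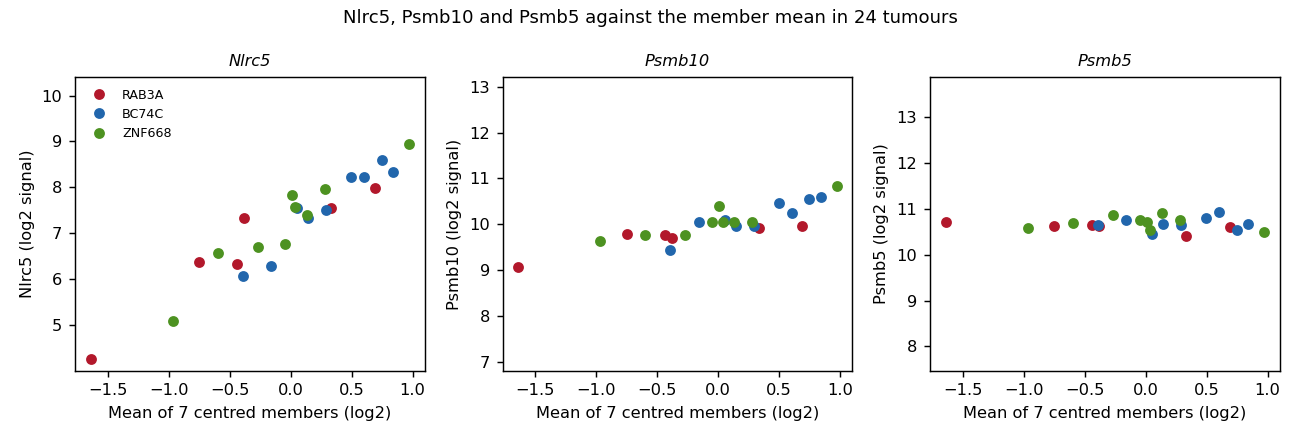
Each point is 1 of 24 tumours, coloured by class gene; the horizontal axis is the mean of the 7 centred members and the vertical axes show the log2 signals of Nlrc5, Psmb10 and Psmb5 over equal spans. Nlrc5 climbs with the members (r 0.945), Psmb10 climbs less steeply (r 0.863), and Psmb5 stays level (r -0.087).

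Interferon-induced genes outside the class I pathway had the members' direction in each class gene comparison. Of the 24 tested, 24 had lower means in RAB3A than in BC74C tumours, with a median of -1.13, 24 were lower in RAB3A than in ZNF668 tumours, with a median of -0.72, and 24 were higher in BC74C than in ZNF668 tumours, with a median of 0.38. Limma called 0 of them in each. The guanylate-binding protein genes Gbp2 and Gbp3 differed by -1.575 and -1.291 between RAB3A and BC74C tumours (limma adjusted p = 0.449 and 0.431), and without RAB3A replicate 3 by -1.007 and -1.089. Without that tumour 21 of 24 genes were lower in RAB3A than in ZNF668 tumours, with a median of -0.415. Without ZNF668 replicate 9, 16 of 24 were higher in BC74C than in ZNF668 tumours, with a median of 0.075. Transcripts of the interferon genes themselves were dim, with Ifng below the filter and Ifnb1 at a mean of 3.84, where the filter stood at 3.76.

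Class II genes had directions that rested on single tumours in the RAB3A comparisons. In RAB3A minus ZNF668, 8 of 8 class II genes had positive differences, with a median of 0.67, and 0 were called. RAB3A replicate 5 carried this: without it 3 of 8 were positive, with a median of -0.06, and the RAB3A mean of the list was 6.02, against 6.68 with it and 6.07 in ZNF668 tumours. In RAB3A minus BC74C 4 of 8 were negative, with a median of -0.035, which was -0.575 without RAB3A replicate 5 and 0.585 without RAB3A replicate 3. In BC74C minus ZNF668 8 of 8 were positive, with a median of 0.55. Without BC74C replicate 2 the median was 0.175, still with 8 of 8 positive. In HGG minus ependymoma 6 of 8 were negative, at a median of -0.421, or -0.107 without BC74C replicate 2. Cd74, the invariant chain, differed by -1.16 (SE 0.75, limma adjusted p = 1), or -0.76 without that tumour.

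Markers of other cells were set beside H2-K1, the member with the most probe sets in accord. The means of 12 lists were related to it over the 24 tumours by two-sided permutation, adjusted over the 12. Interferon-induced genes had an r of 0.806 (permutation adjusted p = 0.00024, rho 0.744) and microglia and macrophage markers one of 0.643 (permutation adjusted p = 0.00642, rho 0.740). T and NK cell markers had an r of 0.494 and class II genes one of 0.492, endothelial markers one of -0.515 and ependymal markers one of 0.471 (permutation adjusted p = 0.0442 each). By rank, rho was 0.635, 0.522, -0.490 and 0.338 in this order (permutation adjusted p = 0.00388, 0.0281, 0.0386 and 0.161). The ependymal relation thus did not pass by rank. Neuron markers had an r of -0.069, proliferation genes one of 0.308 and constitutive proteasome genes one of 0.159, with permutation adjusted p of 0.217 to 0.754. For B cell and dendritic cell, astrocyte and oligodendrocyte lineage markers r was 0.200, 0.318 and -0.101 (permutation adjusted p of 0.212 to 0.692). The astrocyte markers had a rho of -0.077, and their r turned to -0.307 without RAB3A replicate 3 and ZNF668 replicate 9. Without RAB3A replicate 3 and ZNF668 replicate 9, r was 0.626 for interferon-induced genes, 0.646 for macrophage markers, 0.441 for T and NK cell markers, 0.420 for class II genes, 0.362 for ependymal markers and -0.537 for endothelial markers. The part of these cells in the members' values was not tested. In elw and mmr tumours it was 0.818 and 0.761 for interferon-induced genes, 0.613 and 0.748 for macrophage markers, and -0.309 and -0.876 for endothelial markers.

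The mean of 18 mature neuron markers was 9.17 in RAB3A, 8.50 in BC74C and 7.80 in ZNF668 tumours. The mean of 18 microglia and macrophage markers ran between 7.70 and 9.87 in RAB3A, between 7.62 and 9.57 in BC74C and between 7.46 and 9.46 in ZNF668 tumours. With this mean as a covariate, the median of the members was -0.74 for RAB3A minus BC74C, against -0.76 without it. The mean of 9 T and NK cell markers lay between 3.95 and 5.08 in RAB3A, between 4.16 and 4.71 in BC74C and between 3.99 and 4.38 in ZNF668 tumours, and 6 of the 15 measured ones, among them Cd3g, Cd8b1, Gzma and Gzmb, were below the filter. Endothelial markers had means of 6.95 in RAB3A, 6.69 in BC74C and 7.04 in ZNF668 tumours. With them as a covariate the median was -0.58 for RAB3A minus BC74C and 0.14 for BC74C minus ZNF668, with Psme1 at -0.035 and Psme2 at -0.104 there. Neuron markers were higher in RAB3A tumours in 17 of 18 genes against BC74C and 18 of 18 against ZNF668, and with their mean as a covariate the medians of the members were -0.77 and -0.20, against -0.76 and -0.35 without it.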

How the data were processed

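Total RNA of 24 tumours was measured on single-colour Affymetrix arrays, and per the submitters' processing notes the tool was Partek 6.6. The authors deposited 1 log2 value per probe set and tumour for 45141 probe sets; their range and the like medians of all arrays put them on 1 log2 scale, and background correction and normalization are not given in the sources used here. A normalization that equalises arrays would hide a shift shared by most genes.

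The members and gene lists were chosen with earlier results of these data known. Of the probe sets 28898 carry 1 gene symbol, 551 several and 15588 none, and 104 controls were left out. A gene was read from the brightest of the probe sets carrying its symbol alone, with a filter at the 30th percentile (a log2 value of 3.762). The limma package (version 3.58.1, under R 4.3.3) fitted each gene by lmFit and eBayes with a trend, giving two-sided tests adjusted by Benjamini-Hochberg over 13218 genes at a threshold of 0.05. The fit was tested on simulated data. Correlations used 100000 permutations in Python 3.11.15 with scipy 1.17.1. The rule for named genes took all members, Nlrc5, Psmb10 and Irf1, per other list and comparison the 2 genes at either end of the moderated t, and the 10 genes most and the 5 least like the members; H2-T23, H2-M3 and the proteasome counterparts were chosen after their values were seen. The alternatives tried were title prefix as a block or alone, array weights, no filter, the mean of all probe sets, marker means as covariates, subsets of tumours and leaving out each tumour. B2m, Tap1 and Tap2 were not analysed here.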

Additional observations from a re-analysis of the deposited data

Results flagged for a closer look

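Of 42 groups of tumours examined for a single distant value, 3 held one by Dixon's ratio of the gap to the range (critical value 0.493 for 9 tumours and 0.71 for 5), and chance flags about 1 in 20 groups. Tapbp in ZNF668 tumours stood out at 10.41 in replicate 6, with the next tumour at 9.32. Among the 5 tumours labelled TUMOR, RAB3A replicate 3 stood out at 7.29 for Psmb8, with the next tumour at 9.15, and at 5.97 for Psmb9, with the next at 8.29.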

How the results depend on the processing

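Limma called 0 of the 7 members in all 4 comparisons under every alternative run, and the medians over members kept their direction in both RAB3A comparisons and in BC74C minus ZNF668, except as given here. Among mmr titles, a division chosen after seeing the data, RAB3A minus ZNF668 turned to 0.302 for H2-K1, 0.001 for H2-D1, 0.649 for Tapbp, 0.992 for Psmb8, 0.845 for Psmb9, 0.481 for Psme1, 0.483 for Psme2 and their median, and 0.622 for Nlrc5. There, RAB3A minus BC74C was 0.166 for Tapbp and 0.085 for Psmb7, and the BC74C minus ZNF668 median 1.188. RAB3A minus ZNF668 was 0.037 for Tapbp over the mean of all its probe sets, and 0.242 for Cd1d1 among ependymomas.

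BC74C minus ZNF668 turned within elw titles to -0.122 for Psme1, -0.090 for Psme2, -0.094 for Nlrc5 and -0.032 for Psmb10. With the endothelial covariate it was -0.035, -0.104, -0.098 and -0.019 for these and -0.015 for Irf1. Among ependymomas it was -0.031 for H2-D1, -0.181 for Psme1, -0.071 for Psme2, -0.494 for Nlrc5 and -0.155 for Psmb10. HGG minus ependymoma turned with the title prefix as a block to -0.086 for Psme1 and -0.057 for Psmb10, within elw titles to -0.006 for Psme1, -0.207 for Nlrc5, -0.132 for Psmb10 and -0.095 for Irf1, and with the neuron covariate to -0.041 for Psme1 and -0.049 for Psme2. H2-K1 was 0.028 with the endothelial covariate and 0.069 without the class gene covariate. The HGG minus ependymoma median, 0.101, was -0.006 within elw titles, -0.086 with prefix as a block and -0.049 with the neuron covariate. Gene lists, spreads and ependymomas without 1 tumour were chosen after seeing the data. The cause of these turns was not tested.

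Leaving out 1 tumour at a time, the median lay between -0.927 and -0.497 for RAB3A minus BC74C, -0.557 and -0.090 for RAB3A minus ZNF668, 0.290 and 0.504 for BC74C minus ZNF668, and -0.093 and 0.197 for HGG minus ependymoma. The tumours left out at these ends were RAB3A replicates 3 and 4, ZNF668 replicates 6 and 9 and BC74C replicate 9. Tapbp lay between -0.256 and 0.259 for RAB3A minus ZNF668, and Psme2 between -0.025 and 0.186 for BC74C minus ZNF668. For HGG minus ependymoma, H2-K1 lay between -0.250 and 0.074, Psme1 between -0.093 and 0.202, Nlrc5 between -0.128 and 0.516 and Psmb10 between -0.041 and 0.243.

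Over all genes, RAB3A minus BC74C had 0 calls, but 2 with the title block or the mean of all probe sets, 1 without the filter and 7 with the macrophage covariate, and 0 to 4 without 1 tumour. RAB3A minus ZNF668 had 10 calls, but 21 within elw titles or with array weights, 6 without the filter, 18 with the endothelial covariate, 0 with the neuron covariate, in only the 2 class genes compared, among ependymomas or among mmr titles, and 0 to 40 without 1 tumour. BC74C minus ZNF668 had 40 calls, but 130 with array weights, 0 among ependymomas or mmr titles, and 25 to 63 without 1 tumour. No paired analysis was possible because replicate numbers only follow the order of deposit. Signal over background was not assessed, since the table holds no background values.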
